A study of Rattus norvegicus with 6 samples.

Results

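The lysosomal genes described here are 49 genes fixed by name: hydrolases and their activators, membrane proteins of the lysosome, the sorting receptor M6pr, the transcription factor Tfeb, and subunits of the vacuolar proton pump, with the cathepsins left out. On the array 44 of these 49 genes had a probe assigned to them by the platform annotation, among 13336 named genes and 22517 probes in all, and 42 were bright enough to be tested. The 5 genes with no assigned probe were Naglu, Sgsh, Ids, Acp5 and Atp6v0b, and the 2 too dim to test were Idua and Lipa. RNA came from tissue that had formed in uncoated cellulose implants, placed subcutaneously in Sprague-Dawley rats that were 10 weeks old. Tissue was taken at 24 hours (day 1) from rats 1, 2 and 3 and at 72 hours (day 3) from rats 4, 6 and 7, so each of the 6 arrays is 1 rat. Both days carried the same uncoated implant, and tissue without an implant was not analysed here. The tissue is labelled granulation tissue and is a mixture of cells, so that fewer cells of a type and less RNA per cell cannot be told apart.

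Lysosomes are acidic organelles in which hydrolases cut glycans, glycosaminoglycans, lipids and proteins taken up from outside or delivered from within the cell. The acid is made by the vacuolar proton pump, whose V1 sector hydrolyses ATP on the cytosolic side and drives protons through the V0 sector in the membrane. TFEB and its relatives are known to bind E-box motifs in promoters of lysosomal genes, and phagocytes that clear dead cells and debris from wounds are rich in lysosomes.

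On all arrays the lowest, median and highest deposited intensity were 60.6, 104 and 45354, and 53.0% of the probes lay above the estimated background. Over the probes tested, rats 1 and 2 correlated at r = 0.991 and the day 3 rats with each other at 0.988 to 0.992, whereas rat 3 stood apart from rats 1 and 2 at 0.957 and 0.964. The r values run over probes, which do not vary independently of each other. Rat 3 also had the highest summed intensity of 11 adipocyte markers, 162954, where the other 5 rats had 44779 to 67145. Summed over 8 skeletal muscle markers, rats 2, 3 and 6 stood at 17791, 16025 and 15697, and rats 1, 4 and 7 at 1154, 1028 and 1046, so rats of both days were on either side. The part of adipose or muscle RNA in the results below was not tested, and leaving out rat 2, 3 or 6 is among the refits given with them.

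From day 1 to day 3, 3 glycosidases, 1 sulfatase and 1 lipid hydrolase rose, while 7 genes of the proton pump fell. In the refit without rat 6 and in that without rat 7 the number of pump genes that fell was 0. Of 21 hydrolases and activators 5 (23.8%) rose, namely Hexa, Gusb, Glb1, Arsb and Smpd1, and 1, Gla, fell. The count for the proton pump was 7 fallen and 0 risen of 13 in limma's test (adjusted p under 0.05), and 1 pump gene, Atp6v0d2, was higher at day 3 at an unadjusted p under 0.05. Among the other 8 genes Npc1 fell and 0 rose. In all 5 of 42 members (11.9%) rose, where 13.5% of the 8674 genes tested did, and 9 (21.4%) fell, where 10.7% of all genes did. The share that rose is near the background, and is read as no result about the list. The median difference of the 42 members, day 3 minus day 1 on the log2 scale, was -0.17, that of all genes was -0.01, that of the 21 hydrolases and activators was 0.20 and that of the 13 pump genes was -0.49. The days did not overlap, that is, all 3 rats of one day lay above all 3 of the other, for 22 of the 42 members (52.4%) and for 41.7% of all genes. Day 3 was the higher day for 9 of these members, where 22.7% of all genes were so placed, and day 1 for 13, where 19.0% were.

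**Figure D1:**
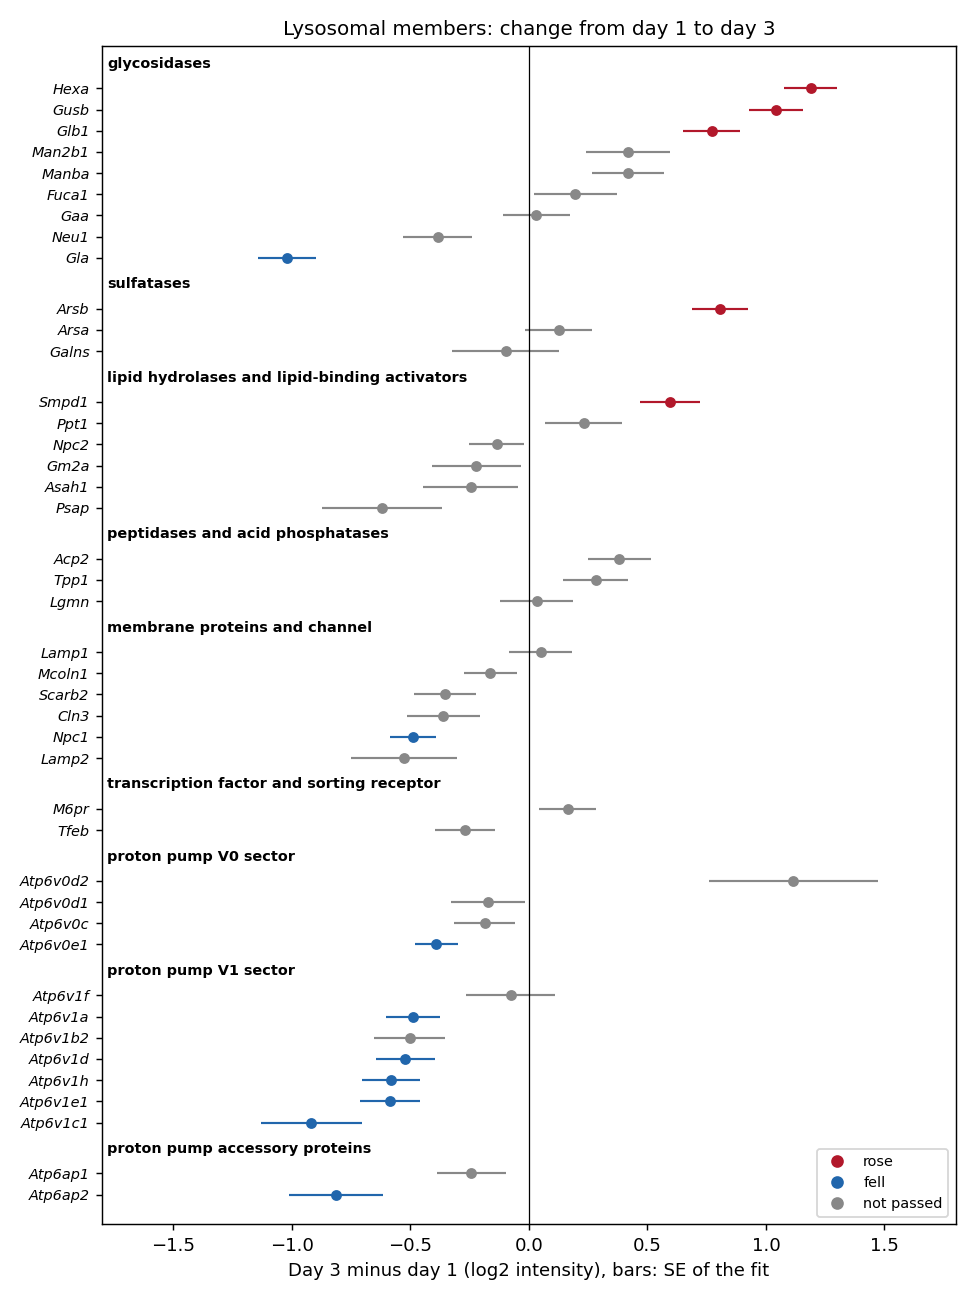
Each point is 1 of the 42 tested genes, placed by its day 3 minus day 1 difference (log2 intensity, 3 rats per day) with the SE of the fit as a bar, grouped by role. Red points (5 genes) rose and blue points (9 genes) fell at an adjusted p under 0.05; 5 of the 7 V1 genes are blue, and the red points lie among the hydrolases.

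The promoters of these genes are shown because many lysosomal genes are known targets of TFEB, whose E-box these windows were searched for. RefSeq promoter windows (build GRCr8, 250 bases before and 50 after the start site) were matched by symbol for 38 of the 49 genes. The 33469 windows covered 27457 symbols, and only the first window listed for a symbol was searched. A window searched need not be the main promoter of its gene. The letters CACGTG, which read the same on both strands, occurred in 9 of the 38 windows (23.7%), in 6.65% of 27457 windows with distinct symbols and in 9.21% of 7211 windows of genes tested on the array. The longer TCACGTG or its reverse complement CACGTGA, each of which contains CACGTG, occurred in the same 9 windows (23.7%), against 3.43% of all windows and 5.34% of those of tested genes. TCACGTGA, which contains both, was found in 5 windows (13.2%), against 0.867% and 1.66%. Such a match describes letters in a window and is not a test of binding. The 9 genes were Lamp1, Cln3, Mcoln1, Atp6v0d1, Atp6v0e1, Glb1, Gaa, Idua and Sgsh. Of these 7 were tested on the array and 2 passed the test, Glb1 (rose) and Atp6v0e1 (fell). Among all genes tested 24.3% passed in either direction, and the count of 2 of 7 is read as no result. The 38 windows covered 3 genes that rose and 7 that fell. Hexa, Arsb, Atp6v1c1 and Atp6v1h, which passed the test, had no window and were not searched.

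Lamp1, whose protein coats the inner face of the lysosomal membrane, held 5 copies of CACGTG, the most of the 38 windows. Its window on the minus strand of chr16:83075014-83075313 is printed whole, with each CACGTG and any flanking T before or A after it in capitals.
Lamp1: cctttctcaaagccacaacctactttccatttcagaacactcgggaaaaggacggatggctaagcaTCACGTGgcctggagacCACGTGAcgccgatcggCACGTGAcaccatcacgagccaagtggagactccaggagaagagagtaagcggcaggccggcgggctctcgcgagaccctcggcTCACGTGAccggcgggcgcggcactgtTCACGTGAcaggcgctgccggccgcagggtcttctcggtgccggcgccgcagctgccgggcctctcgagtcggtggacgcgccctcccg

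For the other 8 genes a stretch of 60 bases around the motif is printed, with the same letters in capitals. Strands and positions in GRCr8 were minus chr1:190597949-190598008 for Cln3, plus chr12:6358222-6358281 for Mcoln1, minus chr19:50357268-50357327 for Atp6v0d1 and minus chr10:17007107-17007166 for Atp6v0e1. They were plus chr8:122963591-122963650 for Glb1, plus chr10:105028261-105028320 for Gaa, minus chr14:1190899-1190958 for Idua and minus chr10:105112014-105112073 for Sgsh. The first CACGTG began 52 bases before the start site in Atp6v0d1, 66 in Cln3, 22 in Mcoln1, 100 in Glb1, 67 in Gaa, 3 in Idua and 37 in Sgsh, and 24 bases after it in Atp6v0e1.
Cln3: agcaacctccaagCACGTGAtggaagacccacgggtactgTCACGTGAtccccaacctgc
Mcoln1: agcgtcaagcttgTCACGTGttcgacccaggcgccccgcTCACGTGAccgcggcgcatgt
Atp6v0d1: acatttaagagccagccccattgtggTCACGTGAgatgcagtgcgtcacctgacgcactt
Atp6v0e1: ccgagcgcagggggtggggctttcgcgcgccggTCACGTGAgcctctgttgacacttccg
Glb1: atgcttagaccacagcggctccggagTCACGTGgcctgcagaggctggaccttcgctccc
Gaa: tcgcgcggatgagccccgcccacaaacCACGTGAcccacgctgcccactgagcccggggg
Idua: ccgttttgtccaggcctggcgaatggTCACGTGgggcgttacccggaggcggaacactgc
Sgsh: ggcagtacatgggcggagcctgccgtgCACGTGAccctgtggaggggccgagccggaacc
Cln3 and Mcoln1 each show 2 copies in 60 bases, and the windows of both pump genes hold the full TCACGTGA, which those of Glb1, Gaa, Idua and Sgsh do not.

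The glycosidases remove sugars from glycolipids, glycoproteins and glycosaminoglycans. Values below are log2 intensities after background correction, on which the background limit was 6.42 and the highest value of any probe was 15.47. Hexa, the alpha subunit of beta-hexosaminidase A, which trims ganglioside GM2, had levels of 10.25, 9.96 and 10.04 in rats 1, 2 and 3 and 11.19, 11.30 and 11.33 in rats 4, 6 and 7. All day 3 rats lay above all day 1 rats, and the mean went from 10.08 ± 0.15 to 11.27 ± 0.08 (SD, n = 3 per day), a 2.28-fold rise (difference 1.19, SE 0.11, limma adjusted p = 0.00169). Gusb, beta-glucuronidase, an enzyme of glycosaminoglycan breakdown, read 10.47, 10.55 and 10.31 at day 1 and 11.63, 11.42 and 11.40 at day 3. It rose 2.06-fold (10.44 ± 0.12 to 11.48 ± 0.12, difference 1.04, SE 0.11, limma adjusted p = 0.00246), again with no overlap between the days. Glb1, lysosomal beta-galactosidase, measured 8.28, 8.06 and 8.20 at day 1 against 9.13, 8.88 and 8.84 at day 3. Its rise was 1.71-fold (8.18 ± 0.11 to 8.95 ± 0.16, difference 0.77, SE 0.12, limma adjusted p = 0.00707), and the lowest day 3 value was 8.84 against a highest day 1 value of 8.28.

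Gla, alpha-galactosidase A, which takes the end galactose off globotriaosylceramide, moved the other way. It gave 8.71, 8.78 and 8.70 in the day 1 rats, a narrow band, and 7.79, 7.86 and 7.49 in the day 3 rats. The mean went from 8.73 ± 0.04 to 7.71 ± 0.20, a 2.03-fold fall (difference -1.02, SE 0.12, limma adjusted p = 0.00308). Hexa, Gusb, Glb1 and Gla passed the test in all 14 alternatives, including the 6 that left out 1 rat, and their largest adjusted p among these was 0.0327, for Glb1 without rat 2.

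The other 5 glycosidases tested did not pass. Man2b1 and Manba, the lysosomal alpha- and beta-mannosidases, differed by 0.42 (SE 0.18, adjusted p = 0.152 in limma) and 0.42 (SE 0.15, adjusted p = 0.099 in limma). The days lay apart only barely in each. The highest day 1 and lowest day 3 values were 10.782 and 10.783 for Man2b1 and 8.90 and 8.91 for Manba. Both passed only without rat 1, at adjusted p of 0.0465 and 0.0413, and over the 14 alternatives their adjusted p ran up to 0.34 and 0.242. Neu1, a sialidase, differed by -0.39 (SE 0.15, adjusted p = 0.11 in limma), also with the days apart by a small margin (8.92 in rat 3, 8.90 in rat 4). It passed without rat 3 (0.0198) and with array weights (0.014), with 0.31 as its highest adjusted p. Fuca1, an alpha-fucosidase, differed by 0.20 (SE 0.18), and Gaa, the glycogen-splitting alpha-glucosidase, by 0.03 (SE 0.14), with overlapping days. As a class the 9 glycosidases had 3 that rose (33.3%, against 13.5% of all genes) and a median difference of 0.42. The 1 that fell (11.1%) is near the 10.7% of all genes.

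Sulfatases take sulfate groups off glycosaminoglycans and sulfolipids. Arsb, arylsulfatase B, which acts on dermatan and chondroitin sulfate, stood at 8.0, 7.78 and 8.03 in rats 1, 2 and 3 and at 8.87, 8.60 and 8.75 in rats 4, 6 and 7. All day 3 values exceeded all day 1 values, and the 1.75-fold rise (7.94 ± 0.14 to 8.74 ± 0.13, difference 0.81, SE 0.12, limma adjusted p = 0.00593) passed in all 14 alternatives. Arsa, which acts on sulfatide, differed by 0.13 (SE 0.14), and Galns, which acts on keratan sulfate and chondroitin sulfate, by -0.10 (SE 0.22), both with overlapping days. The count for the sulfatases was thus 1 risen of 3 (33.3%, against 13.5% of all genes), which rests on 1 gene.

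**Figure D2:**
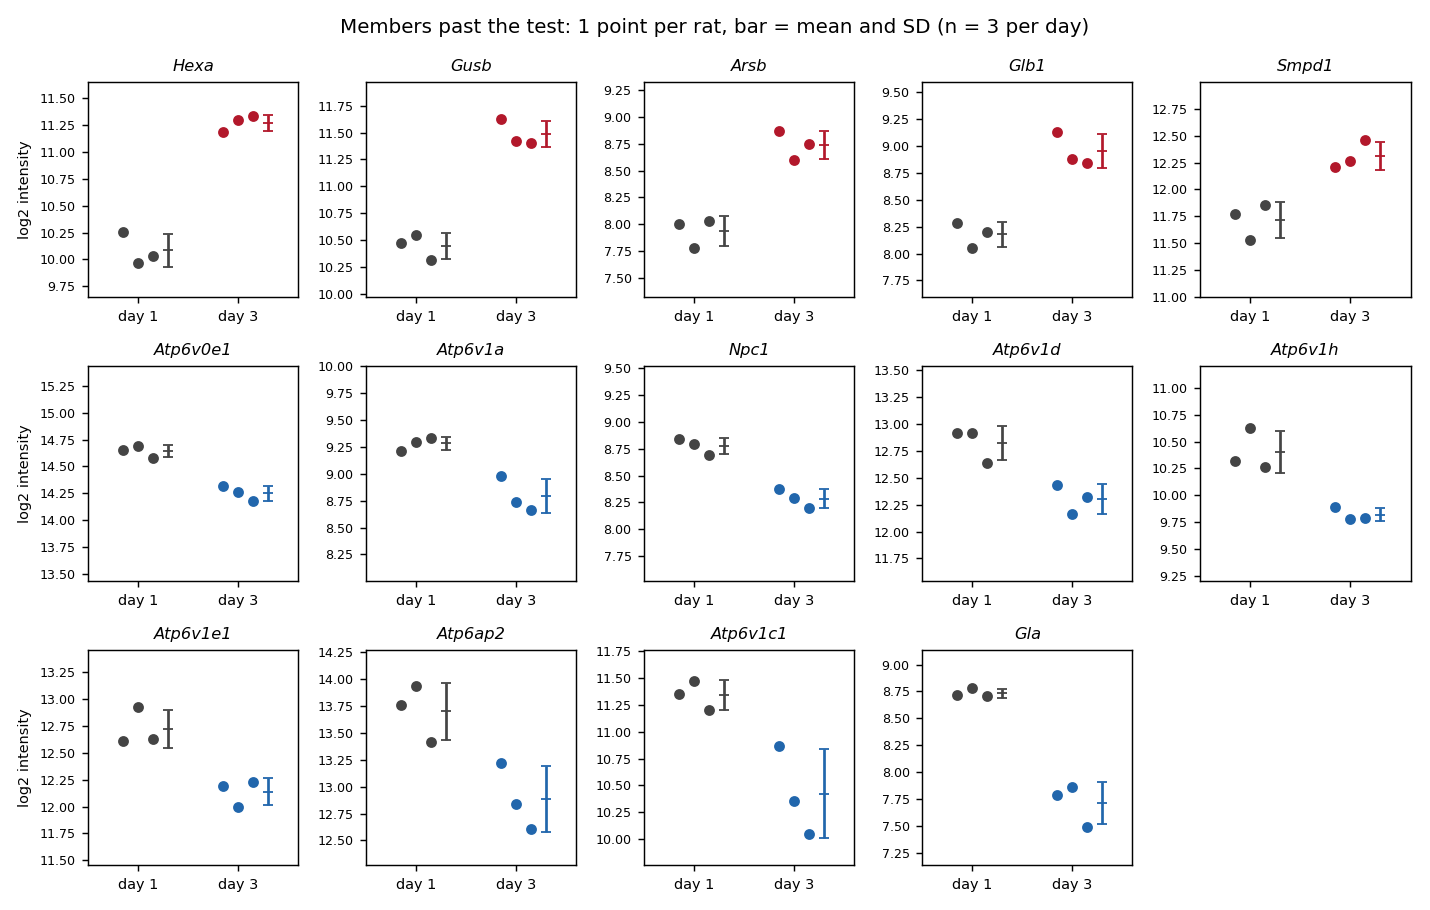
Log2 intensity of the 14 genes past the test, 1 point per rat (rats 1, 2, 3 from left to right at day 1 and 4, 6, 7 at day 3), with mean and SD beside them (n = 3 per day); every panel spans 2 log2 units. In each panel the 3 day 3 points lie wholly above (top row) or below (other rows) the 3 day 1 points.

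Among the lipid hydrolases and their helper proteins 1 of 6 rose (16.7%, near the 13.5% of all genes), and the median difference was -0.18. Smpd1, acid sphingomyelinase, which makes ceramide from sphingomyelin, had 11.77, 11.53 and 11.85 at day 1 and 12.21, 12.27 and 12.46 at day 3. The days lay apart and the rise was 1.51-fold (11.72 ± 0.17 to 12.31 ± 0.13, difference 0.59, SE 0.13, limma adjusted p = 0.0192). The call was lost without rat 2 (adjusted p = 0.0613 in limma), rat 6 (0.0646) or rat 7 (0.0663), and the adjusted p ran from 0.00505 to 0.0663 over the 14 alternatives. Psap, the precursor of the saposins that present lipids to these enzymes, varied most within day 1, with 12.56, 12.30 and 13.17 in rats 1, 2 and 3. At day 3 it read 12.39, 11.98 and 11.80, so that rat 4 lay inside the day 1 range, and the difference of -0.62 (SE 0.25, adjusted p = 0.134 in limma) did not pass. Ppt1, a thioesterase that removes palmitate from proteins, differed by 0.23 (SE 0.16). Asah1, acid ceramidase, differed by -0.25 (SE 0.20), and Gm2a, the activator that lifts GM2 for Hexa, by -0.22 (SE 0.19). Npc2, which hands cholesterol to Npc1, differed by -0.14 (SE 0.12), and these 4 genes had overlapping days.

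None of the 3 peptidase and phosphatase genes measured passed the test in limma (the count is 0 of 3 at adjusted p under 0.05, and 1, Acp2, had an unadjusted p of 0.0246). Lgmn, legumain, which cuts after asparagine, read 12.94, 13.04 and 12.86 at day 1 and 13.29, 12.76 and 12.89 at day 3, with a difference of 0.03 (SE 0.16), or -0.071 with cyclic loess. Its days overlapped, with rat 4 highest and rat 6 lowest of all. Tpp1, tripeptidyl peptidase, differed by 0.28 (SE 0.14). Acp2, a lysosomal acid phosphatase, differed by 0.38 (SE 0.13, adjusted p = 0.087 in limma) with the days apart, passed with array weights alone (0.0494), and reached 0.214 at the highest.

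Of the 6 membrane proteins 1 (16.7%) fell, where 10.7% of all genes did. The days overlapped for 4 and lay apart for 2 (33.3%), where they lay apart for 41.7% of all genes. Npc1, which exports cholesterol from the lysosome, measured 8.84, 8.79 and 8.70 at day 1 and 8.37, 8.29 and 8.20 at day 3, with no overlap. It fell 1.41-fold (8.78 ± 0.07 to 8.29 ± 0.09, difference -0.49, SE 0.10, limma adjusted p = 0.0153). Without rat 1 (adjusted p = 0.0526 in limma), rat 2 (0.0575), rat 6 (0.0640) or rat 7 (0.0564) it missed the threshold, with adjusted p from 0.00386 to 0.064 over the 14 alternatives. Lamp1, an abundant protein of the lysosomal membrane and the gene whose promoter is printed above, stood at 14.53, 14.33 and 14.11 at day 1 and 14.37, 14.28 and 14.48 at day 3. The day 3 values lay inside the day 1 range, and the difference was 0.05 (SE 0.13, adjusted p = 0.844 in limma), or -0.081 with cyclic loess. Lamp2, its companion, read 13.33, 13.29 and 12.83 at day 1 and 13.03, 12.56 and 12.29 at day 3. Rat 3 at day 1 was lower than rat 4 at day 3, so the days overlapped, and the difference of -0.53 (SE 0.22, adjusted p = 0.15 in limma) did not pass, although it did without rat 3 (0.0405) and with array weights (0.0312), in a range up to 0.381.

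Scarb2, the receptor that carries beta-glucocerebrosidase to lysosomes, differed by -0.35 (SE 0.13, adjusted p = 0.103 in limma). Its days lay apart by a small margin (10.99 in rat 1, 10.95 in rat 4). Cln3, a lysosomal membrane protein mutated in juvenile Batten disease, differed by -0.36 (SE 0.15) with overlapping days, and passed without rat 3 (adjusted p = 0.0104) and with array weights (0.0105), in a range up to 0.368. The calcium channel Mcoln1 differed by -0.16 (SE 0.11). Within each array the Lamp1 value minus the Lamp2 value was higher at day 3 by 0.58 (pooled SD 0.31), and that of Npc1 minus Npc2 was lower, with a change of -0.35 (pooled SD 0.10). For both pairs the days lay apart, with p = 0.1 in an exact two-sided permutation test over the rats, which is the smallest p that 3 against 3 allows (0.1 after adjustment over 3 pairs).

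Tfeb, the transcription factor named above, was dim, with 7.03, 7.11 and 6.72 at day 1 and 6.61, 6.75 and 6.69 at day 3. Rat 3 lay between rats 6 and 7, so the days overlapped, and the difference of -0.27 (SE 0.13, adjusted p = 0.189 in limma) passed without rat 3 (0.03) and with array weights (0.0371) only, in a range up to 0.424. M6pr, which carries newly made hydrolases from the Golgi to the lysosome, gave 11.87, 12.04 and 11.66 at day 1 and a narrow 11.99 to 12.07 over the 3 day 3 rats. The difference of 0.16 (SE 0.12) did not pass and the days overlapped.

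In the proton pump 12 of 13 genes were lower at day 3 on average and 7 passed the test (53.8%, against 10.7% of all genes). No overlap between the days was seen for 10 of the 13 pump genes (76.9%, against 41.7% of all genes). Day 1 was higher for 9 of them, where 19.0% of all genes were so placed, and day 3 for 1, where 22.7% were. All 7 genes of the V1 sector were lower on average and 5 of them passed, with a median difference of -0.52. In limma refits that left out a day 1 rat, the number of pump genes that fell was 2 (rat 1 left out), 1 (rat 2) or 9 (rat 3). With a day 3 rat left out it was 5 (rat 4), 0 (rat 6) or 0 (rat 7), while the median difference stayed between -0.54 and -0.41 over the 14 alternatives. Of all genes 6.44%, 4.77% and 16.8% fell without rats 1, 2 and 3, and 8.10%, 5.23% and 5.34% without rats 4, 6 and 7. The number of hydrolases that rose was 7 with rat 1 left out, 4 with rat 2, 6 or 7 left out, and 5 with rat 3 or 4 left out. The shares of all genes that rose were 10.6%, 7.51% and 18.1% without rats 1, 2 and 3, and 10.3%, 6.91% and 7.61% without rats 4, 6 and 7.

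**Figure D3:**
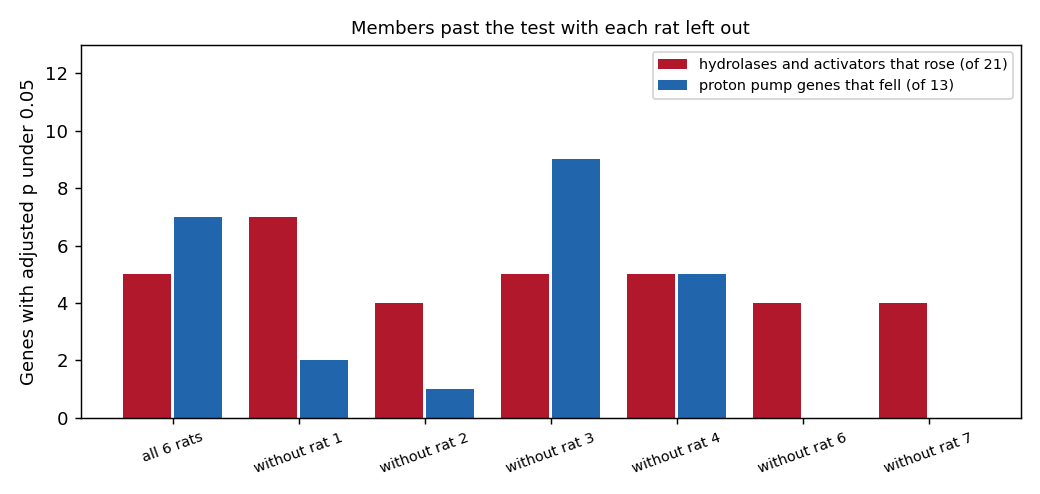
Number of genes with adjusted p under 0.05 in the fit to all 6 rats and in 6 refits that each left out 1 rat. The red bars (hydrolases and activators that rose, of 21) stay between 4 and 7, and the blue bars (proton pump genes that fell, of 13) run from 0 without rat 6 or rat 7 to 9 without rat 3. In the refits 6.91% (without rat 6) to 18.1% (without rat 3) of all genes rose, and 4.77% (without rat 2) to 16.8% (without rat 3) fell.

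Atp6v1c1, the C subunit that links the V1 and V0 sectors, had the largest difference among the V1 genes. It read 11.35, 11.47 and 11.20 at day 1 and 10.87, 10.35 and 10.05 at day 3, a 1.89-fold fall (difference -0.92, SE 0.21, limma adjusted p = 0.025). The day 3 rats were spread, but all lay below all day 1 rats. Atp6v1e1, a stalk subunit, stood at 12.61, 12.92 and 12.63 and then 12.19, 11.99 and 12.23, and fell 1.5-fold (difference -0.58, SE 0.13, limma adjusted p = 0.0206). Atp6v1h, a regulatory subunit, went from 10.32, 10.62 and 10.26 to 9.89, 9.78 and 9.79, with a tight day 3 group, and fell 1.5-fold (difference -0.58, SE 0.12, limma adjusted p = 0.0187). For these 3 genes the days did not overlap. All 3 calls were lost without rat 6 or rat 7, at adjusted p from 0.0523 to 0.0897 in limma. Atp6v1c1 also missed the threshold without rat 1 (0.0663) or rat 2 (0.0896), and Atp6v1e1 without rat 2 (0.0615) or rat 4 (0.0503).

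Atp6v1d, a subunit of the central rotor, measured 12.92, 12.92 and 12.64 at day 1 and 12.43, 12.16 and 12.32 at day 3. It fell 1.44-fold (difference -0.52, SE 0.13, limma adjusted p = 0.028). Atp6v1a, the catalytic subunit that hydrolyses ATP, had 9.21, 9.30 and 9.34 at day 1 and 8.98, 8.74 and 8.67 at day 3. This was a 1.40-fold fall (difference -0.49, SE 0.11, limma adjusted p = 0.025), and for both genes the days lay apart. Both calls were lost when rat 1, 2, 6 or 7 was left out, with adjusted p from 0.0825 to 0.106 for Atp6v1d and from 0.0544 to 0.0978 for Atp6v1a. Atp6v1b2, the B subunit that alternates with A in the catalytic ring, was just short of the test, with 14.26, 14.20 and 13.76 at day 1 and 13.64, 13.50 and 13.57 at day 3. Its days lay apart and its difference was -0.50 (SE 0.15, adjusted p = 0.0552 in limma), which passed in 4 of the 14 alternatives, cyclic loess (0.0168), trend and robust variance (0.0457), array weights (0.00385) and without rat 3 (0.00372), in a range up to 0.171. Atp6v1f, another rotor subunit, differed by -0.08 (SE 0.19) with overlapping days and was the V1 gene with the smallest difference.

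In the V0 sector, the membrane part, 1 of 4 genes fell (25%, against 10.7% of all genes). Atp6v0e1, a small membrane subunit with TCACGTGA in the window printed above, read 14.65, 14.69 and 14.58 at day 1 and 14.32, 14.26 and 14.18 at day 3. The days lay apart and the fall was 1.31-fold (difference -0.39, SE 0.09, limma adjusted p = 0.0258), lost at 0.0546 with a normexp offset of 16. Leaving out any rat but rat 3 also lost it, at adjusted p from 0.0557 to 0.0936. Atp6v0c, the subunit of the proton-carrying ring, measured 15.22, 15.24 and 15.21 at day 1 and 15.14, 14.78 and 15.18 at day 3, close to the top of the scale at 15.47. Its difference of -0.19 (SE 0.13) did not pass, although the days lay apart by a small margin. Atp6v0d1, the widely expressed d subunit, differed by -0.17 (SE 0.16) with overlapping days.

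Atp6v0d2, the form of the d subunit known from osteoclasts and fused macrophages, was the only pump gene higher at day 3 on average among the 13. It was near background at day 1, with 6.60, 6.95 and 6.51 in rats 1, 2 and 3, and read 8.07, 6.97 and 8.37 in rats 4, 6 and 7. Rats 4 and 7 were well above all day 1 rats, whereas rat 6 exceeded rat 2 by a small margin, so the days lay apart only barely. The difference of 1.12 (SE 0.36, adjusted p = 0.0687 in limma) did not pass. It was 1.53 and passed without rat 6 (adjusted p = 0.0129), the lowest of a range up to 0.19 over 13 alternatives. The stricter filter left Atp6v0d2 out. Within each array Atp6v0d2 minus Atp6v0d1 was higher at day 3 by 1.29 (pooled SD 0.56), with the days apart and p = 0.1 in the exact two-sided permutation test, the smallest possible, and 0.1 after adjustment over 3 pairs. Of 7 tested markers of osteoclasts and multinucleated giant cells 0 rose and 3 (42.9%) fell in limma's test, where 13.5% and 10.7% of all genes did. At an unadjusted p under 0.05 the counts were also 0 and 3. The fall was largest for Oscar, an osteoclast receptor, at 3.87-fold (difference -1.95, SE 0.20). Ocstamp, Dcstamp, Nfatc1 and Itgb3 of this list had no assigned probe, and Calcr, Tnfrsf11a and Siglec15 were too dim to test. Without rat 1, 2, 6 or 7 only 1 of the 7 fell, and without rat 4 it was 2. Of the 7 markers 4 stand in other lists too: Mmp9, which fell, among the neutrophil markers, Ostm1, which fell, and Clcn7 among the other lysosomal membrane proteins, and Tcirg1 among the other pump subunits. Whether giant cells were present was not tested.

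The 2 accessory proteins of the pump were lower at day 3 on average. Atp6ap2, the prorenin receptor, measured 13.76, 13.94 and 13.42 at day 1 and 13.22, 12.84 and 12.61 at day 3. Rat 7 was lowest, the days lay apart, and the fall was 1.76-fold (difference -0.81, SE 0.20, limma adjusted p = 0.0299). The call was lost without rat 1 (0.0819), rat 2 (0.101), rat 6 (0.102) or rat 7 (0.0942). Atp6ap1 differed by -0.24 (SE 0.14) with overlapping days, and passed with array weights (adjusted p = 0.0469) and without rat 3 (0.0386), in a range up to 0.57. Over the 14 alternatives the adjusted p of the 7 pump genes that fell ran from 0.00448 to 0.106, with the highest values, from 0.0754 to 0.106, all in the refit without rat 6.

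Within a day the same rats were lowest or highest for many of the members. Rat 3 was the lowest day 1 rat for 31 of the 42 members (73.8%) and for 11 of the 13 pump genes (84.6%), against 50.6% of all genes tested. Rat 6 was the highest day 3 rat for 3 of the 42 members (7.14%), against 26.6% of all genes, and rat 4 for 24 (57.1%), against 30.2%. The median deviation of the 13 pump genes from each gene's own mean was 0.21, 0.34 and 0.08 in rats 1, 2 and 3 and -0.11, -0.32 and -0.24 in rats 4, 6 and 7, so the days did not overlap. For the 21 hydrolases and activators it was 0.08, -0.10 and -0.26 at day 1 and 0.19, -0.003 and 0.15 at day 3. Rat 1 lay above rat 6, so the days overlapped. For the 6 membrane proteins it was 0.25, 0.31 and -0.03 at day 1 and -0.09, -0.24 and -0.19 at day 3, with no overlap. The days also did not overlap for the 24 other lysosomal membrane proteins and the 11 further pump genes described below. They overlapped for the 19 other enzymes and activators and the 24 genes of transcription, sorting and nutrient signalling.

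**Figure D4:**
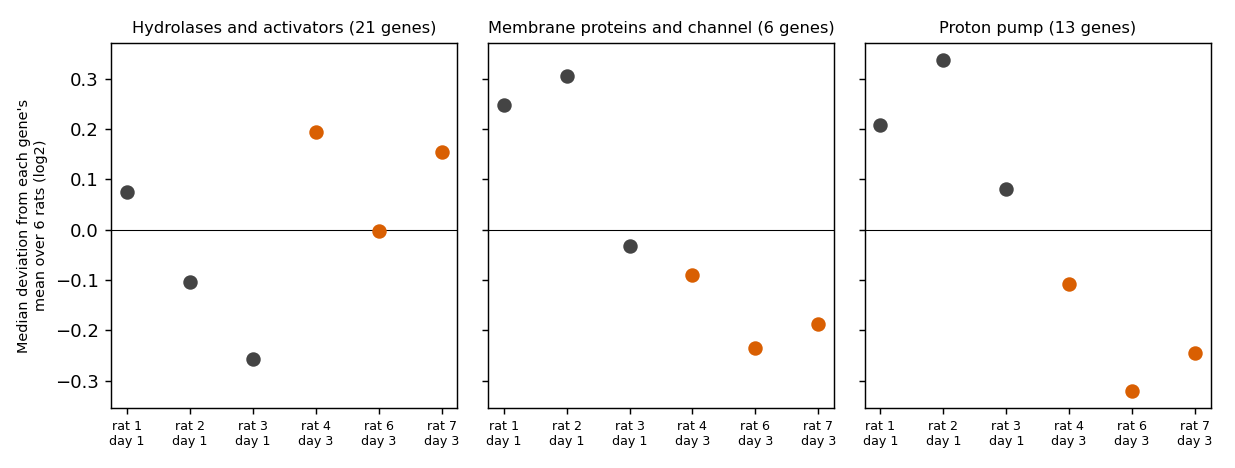
For each rat, the median over the genes of a group of the deviation from the gene's own mean over the 6 rats (log2 intensity). Proton pump genes lie above 0 in rats 1, 2 and 3 and below 0 in rats 4, 6 and 7, as a description of 13 genes. Membrane proteins (6 genes) do not overlap between the days either, with rat 3 at -0.03, while hydrolases and activators overlap.

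Other lysosomal genes were counted by function, in lists chosen with earlier results known, against 13.5% risen and 10.7% fallen of all genes. The shares of all genes in each refit are those given with the proton pump. Of 11 further genes of the pump and its assembly 2 (18.2%) fell and 0 rose, with a median difference of -0.18. They were Atp6v0a1, the a subunit of the V0 sector, with a 1.92-fold fall (difference -0.94, SE 0.17, limma adjusted p = 0.0112), and the assembly factor Tmem199 (difference -0.49, SE 0.12). At an unadjusted p under 0.05 the counts were 4 lower and 0 higher. With 1 rat left out 1 fell without rat 1, 2, 6 or 7, 2 without rat 4 and 3 without rat 3. Among 19 other enzymes and activators 3 (15.8%) rose and 2 (10.5%) fell, shares near those of all genes. Cpq, a lysosomal carboxypeptidase, rose 2.18-fold (difference 1.12, SE 0.10) and Aga, which splits the bond between asparagine and sugar, rose 1.56-fold (difference 0.64, SE 0.12). Galc, galactosylceramidase, fell 1.66-fold (difference -0.73, SE 0.13) and Sumf1, which activates sulfatases, fell 1.57-fold (difference -0.65, SE 0.17). The number that fell was 1 without rat 1, 2, 6 or 7 and 3 without rat 3 or 4, and the number that rose was 2 without rat 2, 6 or 7, 3 without rat 3 or 4 and 4 without rat 1.

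Of 24 other lysosomal membrane proteins 3 (12.5%) rose, near the 13.5% of all genes, and 5 (20.8%) fell, against 10.7%. The number that fell was 3 without rat 1, 2 or 6, 4 without rat 4 or 7, and 8 without rat 3. The number that rose was 1 without rat 2, 4 or 6, 2 without rat 1 or 7, and 5 without rat 3. Laptm4b and Laptm4a, lysosomal transmembrane proteins, rose by 0.67 (SE 0.09) and 0.48 (SE 0.10) on the log2 scale. Slc11a1, the metal transporter of phagocyte lysosomes, fell 2.76-fold (difference -1.46, SE 0.22), and Lmbrd1, which takes part in cobalamin export, fell 2.13-fold (difference -1.09, SE 0.19). Of 24 genes of transcription, sorting and nutrient signalling at the lysosome 0 rose and 3 (12.5%) fell, near the background, with a median difference of 0.005. At an unadjusted p under 0.05 the counts were 1 higher and 6 lower. The number that fell was 0 without rat 2, 6 or 7, 1 without rat 1, 2 without rat 4 and 6 without rat 3, and 2 rose without rat 3. Tfec, a relative of Tfeb, fell 2.03-fold (difference -1.02, SE 0.29, limma adjusted p = 0.0453) and Gga3, a sorting adaptor, fell 1.64-fold (difference -0.71, SE 0.16).

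Markers of several cell types moved between the same days, and their part in these differences was not tested. The counts below stand against 13.5% risen and 10.7% fallen of all genes. Of 12 tested neutrophil markers 10 fell and 0 rose. Leaving out 1 rat gave 7 (rat 7) to 10 (rat 3) that fell, and 1 rose without rat 1. The summed deposited intensity of the 12 was 41812 to 75139 at day 1 and 32746 to 37341 at day 3. Lcn2, a granule protein that other cells also make, held 22361 to 31537 of the day 3 sums and differed by 0.72 (SE 0.24, limma adjusted p = 0.078, unadjusted 0.0211), with overlapping days. Without Lcn2 the sums of the other 11 were 25592 to 52460 at day 1 and 5502 to 10385 at day 3. Of 10 tested macrophage markers 4 rose, C1qa, C1qb, C1qc and Cd163, and 1, Cd14, fell, with sums of 33834 to 51997 and 35573 to 55203. Marco and Vsig4 of the macrophage list were too dim to test, and Cd68, Csf1r, Msr1 and Lyz2 had no assigned probe. Of 14 fibroblast markers 11 rose and 0 fell, with sums of 67066 to 82585 at day 1 and 156403 to 178578 at day 3. Mast cell markers had 7 of 8 that fell (4 without rat 2 or rat 7), endothelial markers 6 of 8 that rose (3 without rat 2 or rat 6, 4 without rat 7) and adipocyte markers 1 of 11 that fell (2 fell and 2 rose without rat 3). All 3 tested keratinocyte markers rose, with sums of 258 to 283 and 386 to 445. In the refits without rat 4, 6 or 7 only 1 was tested, so the others passed the filter only through the day 3 rats. The filter fixed the direction of those, and the count is read as no result. The counts were 0 of 7 lymphocyte and 0 of 8 skeletal muscle markers in limma, at an unadjusted p under 0.05 also, and 3 lymphocyte markers fell without rat 3.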

How the data were processed

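RNA from 6 rats was hybridised to 1 Illumina rat BeadChip array each, after biotin labelling with the Illumina TotalPrep kit per the labels' protocols. The intensities used are the authors' deposited values, quantile normalised between arrays as their identical distributions show, on a linear scale and not log2 transformed. The submitters' processing notes name limma. How the scanner background was treated is not given in the sources used here. A second, non-normalised table holds 12 columns whose names match no sample, so it was not used here, and detection was estimated from the intensities themselves.

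The intensities were background corrected (normexp, offset 50), quantile normalised and log2 transformed with limma 3.58.1 in R 4.3.3. The mode of the values (density bandwidth 0.05) was 86.0 and the background limit, the 95th percentile of a normal with that mode and the spread of the values below it, was 101. Probes above it on at least 3 arrays were tested (12171 probes, of which 2729, or 22.4%, had an adjusted p under 0.05). A gene is represented by its brightest tested probe. Platform symbols were updated through gene identifiers to RefSeq. Each probe was fitted with lmFit and eBayes, day 3 against day 1, unpaired, with Benjamini-Hochberg adjustment over all tested probes. The pipeline was tested on simulated data.

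The genes, the role groups and the lists were chosen with earlier results of these data known. Values of every rat are given for genes past the test, for Tfeb, Lamp1, Lamp2, Atp6v0d2 and Psap, and for Lgmn and M6pr where a role group had no call. Of other lists up to 2 genes per direction are named. Atp6v1b2 and Atp6v0c, shown by rat, and Oscar, Cd163, Lcn2 and the C1q genes were named after their values were seen. The labels name 1 rat per array, so p-values reflect the spread between rats. The 14 alternatives were no background correction, offset 16, cyclic loess, no filter, a stricter filter (above the 99th percentile on each array), eBayes with trend and robust, array weights, the mean of a gene's probes, and 6 refits without 1 rat. The same refits for the counts of the other lists, and the neutrophil sum without Lcn2, were chosen after seeing the data. The number of arrays limits the precision.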

Additional observations from a re-analysis of the deposited data

How the results depend on the processing

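Of the 14 genes past the test all kept their direction in the 14 alternatives, 13 passed in each of the 8 alternatives that kept all rats, and 5 (Hexa, Gusb, Glb1, Arsb and Gla) passed in all 14. The exception among the 8 was Atp6v0e1 with offset 16. The number of calls lost was 9, 9 and 8 when rats 6, 7 and 2 were left out, and 6, 2 and 0 for rats 1, 4 and 3. With array weights 15 members fell, against 9. Leaving out 1 rat at a time gave 1 (rat 6 or 7) to 15 (rat 3) members that fell, 4 (rat 2 or 7) to 7 (rat 1) that rose, and 1304 (rat 6) to 3804 (rat 3) probes past the test, with fewer arrays in each refit. The median difference of the members ran from -0.29 to -0.09, and that of all genes from -0.02 to 0.01. Of the genes not past the test 10 passed in some alternative and 5 changed sign. Lamp1 was -0.081 with cyclic loess, -0.073 with array weights and -0.055 to 0.16 with a rat left out. Lgmn was -0.071, -0.051 and -0.13 to 0.14 in the same order. Gaa was -0.035 with array weights and -0.049 to 0.16 with a rat left out, Galns -0.30 to 0.052 and Atp6v1f -0.28 to 0.073. The cause was not tested. Near background the size of a difference moved with the correction: Atp6v0d2 was 1.02 without it and 1.43 with offset 16, and Tfeb -0.24 and -0.38. Atp6v0d2 was left out by the stricter filter, and over its other 13 alternatives its difference ran from 0.75 to 1.53. No paired analysis was possible because each array is a different rat and the days share no rat number.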
